A study of Mus musculus with 12 samples.

Results

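The genes described here are 10 early-response feedback, mRNA decay and Klf genes, measured in mouse hearts. They are the early-response genes Ier2 and Ier5, the mRNA decay factors Zfp36, Zfp36l1 and Btg2, the phosphatase gene Dusp1, the Krüppel-like factors Klf2, Klf4 and Klf6, and the endothelial early-response gene Apold1. They were taken by name from the 55401 gene IDs in each count file, and all 10 were among the 6596 genes that passed the filter on low counts. They were chosen by their measured levels in the KO and WT Input libraries, with earlier results of these data known. Values of that comparison are therefore given as a description, with no p-value for any gene. Hearts came from adult wild-type mice (WT) and from adult mice with the genotype Rpl3l-/- (KO), a knockout by its label of the ribosomal protein gene Rpl3l, a paralog of Rpl3 used in striated muscle. Of each genotype there were 2 fractions, each in biological triplicate, which makes 4 groups of 3 and 12 libraries. Input is poly(A) RNA from whole heart homogenate, and IP is poly(A) RNA recovered with ribosomes that were pulled down through an HA tag. IP hearts were treated with cycloheximide, a blocker of translation elongation, at excision, and their RNA was purified on columns, whereas Input RNA was purified with TRIzol. Fraction, cycloheximide at excision and RNA purification change together in these libraries and cannot be told apart. The labels give no strain, sex or exact age. They do not say which cells carry the tag or whether a heart gave both an Input and an IP library.

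Immediate early genes are transcribed within minutes of a stimulus such as stretch, injury or growth factor signalling, through transcription factors that are already present in the cell. The response is shut off by its own products. Dual-specificity phosphatases inactivate MAP kinases, and proteins of the Zfp36 family bind AU-rich elements in 3' untranslated regions (UTRs) and recruit the deadenylases that shorten poly(A) tails. Klf2 and Klf4 are best known in vessels as factors induced by laminar flow in endothelium, and Klf6 as a factor induced by injury.

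Library totals ran from 169359 to 710868 counts, with 169359 to 443177 in Input and 443525 to 710868 in IP. Within Input, totals were 356705 to 443177 in WT and 169359 to 291040 in KO, so depth and genotype changed together there. Levels are given in CPM, counts per 1e6 counts of a library, scaled by TMM, a between-library normalisation, and 3 counts in a library stood for 3.92 to 17.0 CPM. The cardiac muscle markers Myh6 and Tnnt2 were at 5627 to 9797 and 7955 to 16930 CPM over the libraries, while 1 of 10 listed muscle markers, Actc1, and 1 of 16 endothelial markers, Cav1, were listed at 0. Rpl3l was at 269.6 ± 43.9 CPM in WT Input and 48.9 ± 20.9 in KO Input, and at 271.6 ± 2.75 in WT IP and 4.42 ± 3.37 in KO IP (SD, n = 3 each). Each KO library was below each WT library, but Rpl3l was not near 0 in the libraries labelled KO Input, which held 27.0 to 68.5 CPM. Hemoglobin transcripts took 1.70% to 17.2% of the counts, and most in replicate 2 of WT IP and replicate 3 of WT Input. In whole hearts, fewer cells of a type and less RNA per cell cannot be told apart.

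In KO Input, all 10 genes had a higher mean than in WT Input, and the differences ranged from near 0 for Zfp36l1 to about 10-fold for Apold1. The libraries of the genotypes did not overlap for Ier2, Zfp36, Dusp1, Klf2 and Apold1. They overlapped for Ier5, Zfp36l1, Btg2, Klf4 and Klf6. KO Input replicate 1 was the lowest of the 3 KO Input libraries for 9 of the 10 genes. Replicate 3, the library with the fewest counts, was the highest for 6 of the 10, and replicate 2 for 4.

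**Figure D1:**
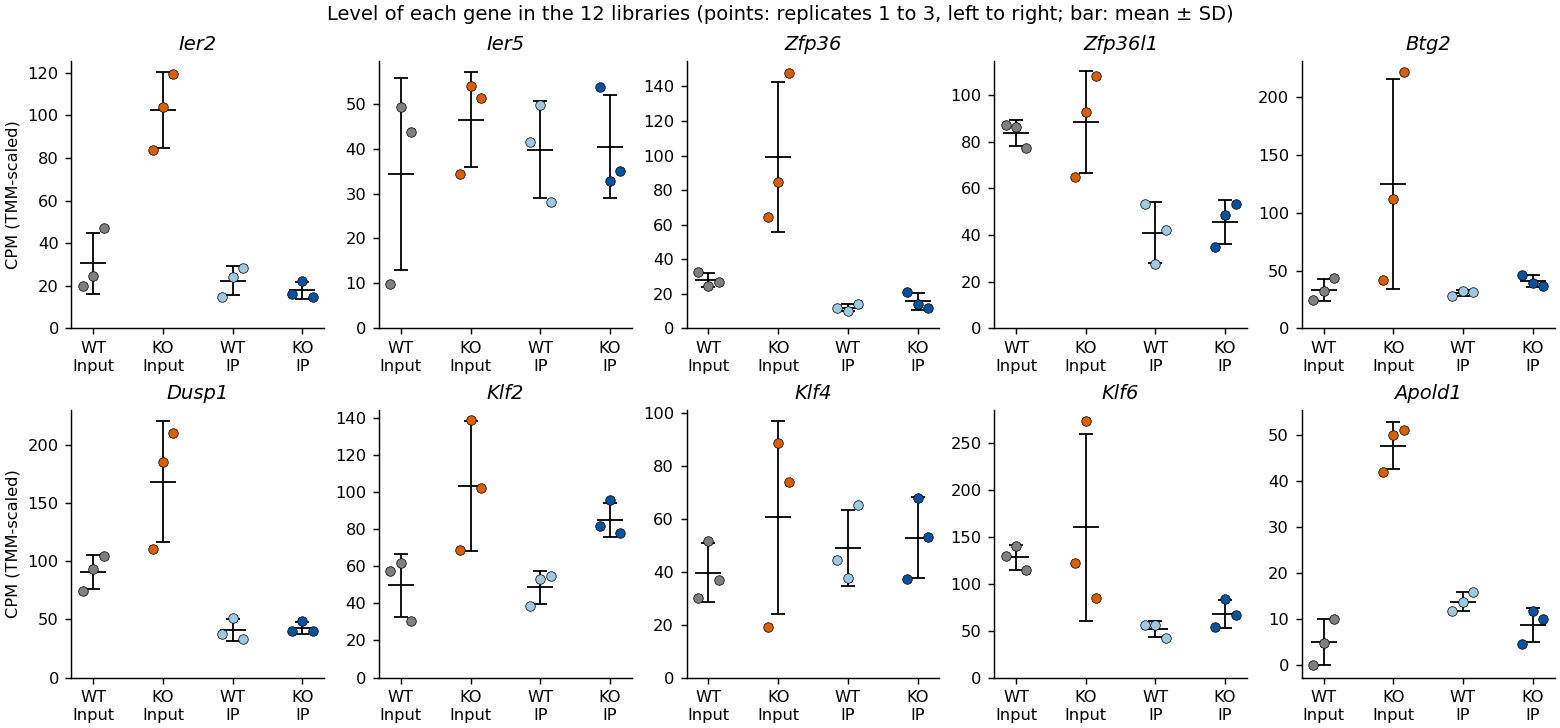
Level of each of the 10 genes in the 12 libraries, in TMM-scaled CPM on a linear axis of its own per gene, with points for replicates 1 to 3 of WT Input, KO Input, WT IP and KO IP, a horizontal bar for the mean and whiskers for the SD. Ier2 in KO Input sat between 83.8 and 119 CPM, above the 9 other libraries, while Ier5 overlapped between all groups.

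Ier2 encodes a small nuclear protein that takes part in transcriptional regulation. Its gene lies at chr8:84661331-84662852 on the minus strand (ENSMUSG00000053560.5, build GRCm38) and has 1 exon. Ier2 was at 19.9, 24.7 and 47.0 CPM in WT Input replicates 1, 2 and 3 and at 83.8, 104 and 119 CPM in KO Input. Every KO Input library was thus above every WT Input library. In means this was 30.5 ± 14.5 against 102 ± 17.8 CPM (SD, n = 3 each), a log2 fold change of 1.77 with a standard error (SE) of 0.36 in the edgeR fit. These levels rest on 8 to 14 counts per WT Input library and 21 to 27 per KO Input library.

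Ier5, another gene with 1 exon (chr1:155096361-155099636, minus strand), encodes a protein that guides a serine/threonine phosphatase to its substrates. Its levels were 9.97, 49.3 and 43.7 CPM in WT Input and 34.3, 53.9 and 51.1 CPM in KO Input. The groups overlapped, and WT Input replicate 1, with 4 counts, was the low library. The log2 fold change was 0.44 (SE 0.45), and it was -0.03 without WT Input replicate 1.

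Zfp36 encodes tristetraprolin, a zinc-finger protein that binds the heptamer UAUUUAU in target mRNAs and directs them to deadenylation. The gene (chr7:28376784-28380253, minus strand, 2 exons) was at 32.4, 24.7 and 26.9 CPM in WT Input and at 64.7, 84.7 and 148 CPM in KO Input. All KO Input libraries were above all WT Input libraries, with replicate 3 the highest. The log2 fold change was 1.77 (SE 0.37), and the means were 27.98 ± 3.99 and 99.1 ± 43.3 CPM.

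Zfp36l1, the paralog of Zfp36 that binds the same element (chr12:80107754-80113013, minus strand, 2 exons), was at 87.2, 86.3 and 77.3 CPM in WT Input and at 64.7, 92.4 and 108 CPM in KO Input. The KO Input libraries lay on both sides of the WT Input libraries, with a log2 fold change of 0.05 (SE 0.30).

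Btg2 encodes an antiproliferative protein that binds the CCR4-NOT deadenylase complex and speeds poly(A) shortening of many mRNAs. The gene (chr1:134075170-134079120, minus strand, 2 exons) was at 24.9, 32.1 and 43.7 CPM in WT Input and at 41.9, 112 and 222 CPM in KO Input. KO Input replicate 1 fell within the WT range, and replicates 2 and 3 were far above it. The log2 fold change was 1.85 (SE 0.42), and it was 1.22 without KO Input replicate 3.

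The 3' UTRs of these decay factors and of several of the other genes themselves carry the heptamer TATTTAT (written with T, as in the genome), the element that Zfp36 proteins bind. It occurs in the annotated 3' UTR of 7 of the 10 genes, against 30.5% of the 6469 tested protein-coding genes, and against 33.0% of the 3303 of those whose 3' UTR is between 690 and 3111 bases long, the range of the 10 genes. Zfp36, Zfp36l1 and Dusp1 each have 3 copies, Klf6 and Apold1 have 2 each, Btg2 and Klf2 have 1 each, and Ier2, Ier5 and Klf4 have none. Here 1 site of each of 5 genes is shown with 11 bases on either side, 5′ to 3′, with the heptamer in capitals, from GENCODE M21 transcripts on GRCm38. They lie at chr7:28376966-28376994 (Zfp36, minus strand), chr1:134077249-134077277 (Btg2, minus strand), chr17:26506159-26506187 (Dusp1, minus strand), chr8:72320988-72321016 (Klf2, plus strand) and chr6:134985218-134985246 (Apold1, plus strand).
Zfp36: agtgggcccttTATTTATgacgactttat
Btg2: aaatgaagagcTATTTATacatgtttttt
Dusp1: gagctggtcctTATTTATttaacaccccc
Klf2: aaacagactgcTATTTATtggaccttagg
Apold1: caccatatcttTATTTATttaaaattagt
The shorter pentamer ATTTA, which is contained in the heptamer, was present in 9 of the 10 genes, against 70.9% of tested protein-coding genes. Apold1 had 13 copies, Zfp36l1 9, Klf6 7 and Btg2 5, while Ier2 had 0. A match of letters is a description of the sequence and was not tested as a site.

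**Figure D2:**
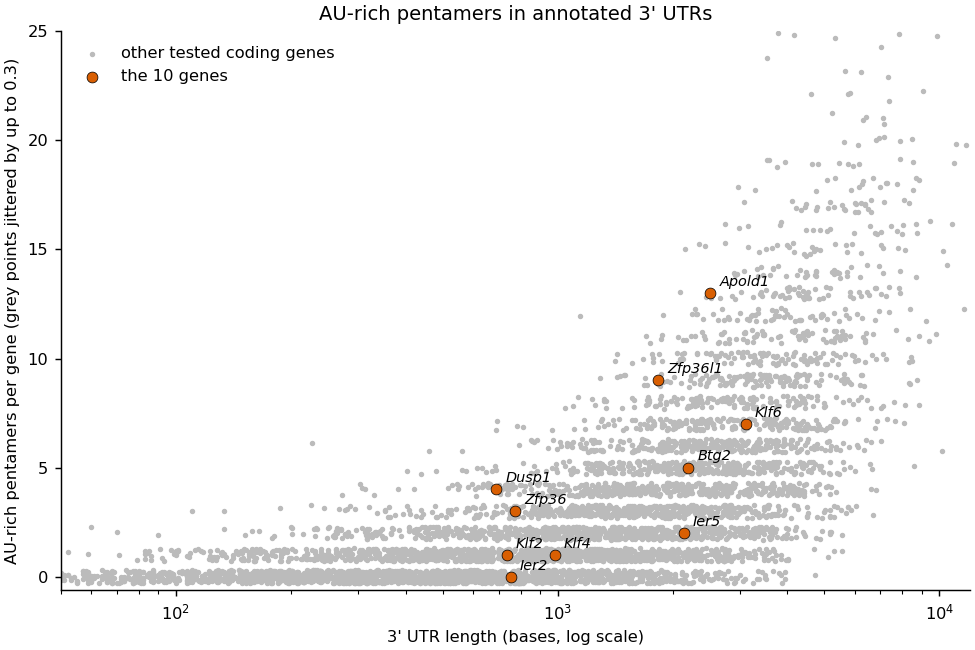
Number of AU-rich pentamers in the annotated 3' UTR of each gene (vertical axis, count per gene) against the length of that 3' UTR in bases (log axis), with grey points for other tested protein-coding genes and orange points for the 10 genes; 98 genes lie outside the axes. Apold1 is the highest of the 10 with 13 pentamers, and Ier2 is at 0.

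Dusp1 encodes a nuclear phosphatase that inactivates the MAP kinases p38, JNK and ERK, and its mRNA is itself an early-response transcript. Dusp1 (chr17:26505590-26562128, minus strand, 4 exons in the transcript used here) was at 74.8, 93.7 and 104 CPM in WT Input and at 110.4, 185 and 210.2 CPM in KO Input. The groups did not overlap, though KO Input replicate 1 was close to the highest WT Input library, and the log2 fold change was 0.88 (SE 0.27). The gene model overlaps Ergic1 on the opposite strand, a gene with 6 to 32 counts per library. The sources used here do not give how the counting treated strand, so reads of the overlap cannot be assigned with certainty.

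Klf2, the flow-responsive factor of endothelium (chr8:72319033-72321656, plus strand, 3 exons), was at 57.3, 61.7 and 30.2 CPM in WT Input and at 68.5, 139 and 102 CPM in KO Input. All KO Input libraries were above all WT Input libraries, with replicate 1 just above the WT range, and the log2 fold change was 1.01 (SE 0.32). Klf4, which shares many endothelial targets with Klf2 (chr4:55527143-55532466, minus strand, 5 exons), was at 29.9, 51.8 and 36.9 CPM in WT Input and at 19.0, 88.6 and 73.9 CPM in KO Input. Its KO Input replicate 1, with 5 counts, was below every WT Input library, and the log2 fold change was 0.57 (SE 0.43). Klf6 (chr13:5861482-5870394, plus strand, 4 exons) was at 129.6, 141 and 114 CPM in WT Input and at 122, 273 and 85.2 CPM in KO Input. Its mean rested on KO Input replicate 2: the log2 fold change was 0.36 (SE 0.29) with that library and -0.30 without it.

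Apold1 encodes an endothelial protein first described as an early-response gene of vessels, and it was the least abundant of the 10 genes in WT Input. Apold1 (chr6:134981718-134986836, plus strand, 2 exons) was at 0, 4.93 and 10.1 CPM in WT Input and at 41.9, 50.1 and 51.1 CPM in KO Input. The KO Input libraries lay close together and far above the WT Input libraries, which held 0, 2 and 3 counts. Pooled over libraries, the ratio was 10.4 (exact 95% interval 4.05 to 34.3, counting error only), from 33 counts in KO Input and 5 in WT Input. The log2 fold change was 3.30 (SE 0.67), and it ranged from 2.67 without WT Input replicate 1 to 4.11 without WT Input replicate 3.

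Past an adjusted p of 0.05 over all genes (edgeR's quasi-likelihood test with Benjamini-Hochberg adjustment), 3 of the 10 genes were higher in KO Input, Ier2, Zfp36 and Apold1, where 0.152% of all tested genes were higher by that rule. Groups without overlap were found for 5 of the 10, against 6.17% of all tested genes in that direction. Nothing is read from either count, since the genes were chosen by these same levels. Apold1 also passed the filter on low counts through KO Input alone, as no other library held more than 15.8 CPM. Zfp36 needed KO Input libraries to pass it too. The median log2 fold change of the 10 was 0.95, beside -0.01 over all tested genes. The number past the threshold was 0 without WT Input replicate 1, WT Input replicate 2, KO Input replicate 2 or KO Input replicate 3, and 1 without replicate 1 or 2 of WT IP or replicate 2 of KO IP, whose spread enters the shared fit.

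The stretches before the transcription start were searched for motifs of signal-responsive transcription, because several of the 10 genes were high in the same KO Input libraries. RefSeq starts on GRCm38.p6 were matched for 9 of the 10 genes, all but Ier2, and the 250 bases before each start were compared with the same window of 32851 RefSeq promoters, on both strands. The full cyclic AMP response element (CRE), TGACGTCA, which binds CREB family factors, was present in Btg2 and Dusp1 and in 1.55% of all windows. It starts 166 bases before the start of Btg2 and 143 bases before that of Dusp1. The shorter CRE core TGACG, which the full element contains on both strands, was present in 5 of the 9 (Apold1, Btg2, Dusp1, Klf2 and Klf4) and in 17.8% of all windows. The windows of Btg2 (chr1:134079156-134079405, minus strand) and of Dusp1 up to its first annotated exon (chr17:26508520-26508722, minus strand) are shown 5′ to 3′ with the CRE and any other CRE core in capitals.
Btg2: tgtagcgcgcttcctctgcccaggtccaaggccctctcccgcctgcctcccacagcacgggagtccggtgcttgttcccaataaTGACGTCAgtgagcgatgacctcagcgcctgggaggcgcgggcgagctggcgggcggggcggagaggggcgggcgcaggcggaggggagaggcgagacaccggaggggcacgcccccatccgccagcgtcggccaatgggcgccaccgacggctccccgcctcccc
Dusp1: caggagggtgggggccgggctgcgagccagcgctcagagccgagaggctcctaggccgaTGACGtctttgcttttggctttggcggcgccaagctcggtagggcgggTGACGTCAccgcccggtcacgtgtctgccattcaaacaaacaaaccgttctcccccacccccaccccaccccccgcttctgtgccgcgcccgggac
A CArG box, the element bound by serum response factor, was found 58 bases before the start of Zfp36 and in 1.47% of all windows. The AP-1 site TGANTCA was found in Zfp36l1 and in 6.75% of windows, and the TATA box TATAAA in Apold1 and Zfp36l1 and in 12.4% of windows. The CArG box, AP-1 site and Apold1 TATA box are shown in 30 bases each with the motif in capitals, at chr7:28379267-28379296 (minus strand), chr12:80113124-80113153 (minus strand) and chr6:134981957-134981986 (plus strand). The first and the last lie within exons of GENCODE models that start further upstream.
Zfp36: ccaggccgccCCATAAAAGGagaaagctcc
Zfp36l1: gaccgcatggcTGATTCAacctcagtgtca
Apold1: gctcctgggagcTATAAAgtatgctcgtcc
No binding or chromatin data belong to these libraries, and these matches describe the letters of the windows only.

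On ribosomes, the comparison of KO with WT set 3 KO IP against 3 WT IP libraries. Its fold changes rest on no Input library, although all 12 libraries share 1 fit and its estimate of the spread. None of the 10 genes passed the adjusted threshold there with edgeR, where 0.0910% of all tested genes passed in either direction. None did with DESeq2 or limma-voom, though DESeq2 gave Apold1 no adjusted p. At an unadjusted p under 0.05 there was 1 of the 10, Klf2, among 343 of the 6596 genes tested. Of the 10 log2 fold changes 7 were above 0 and 3 below, with a median of 0.15 beside 0.00 over all genes. Groups without overlap were found for Klf2 and Btg2, higher in KO IP (background 5.40%), and for Apold1, lower in KO IP (background 5.44%).

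Klf2 had the largest IP difference of the 10 genes. It was at 38.5, 53.1 and 54.6 CPM in WT IP and at 81.7, 95.5 and 78.1 CPM in KO IP. All KO IP libraries were above all WT IP libraries, and the SD within each group was below 10 CPM. The means were 48.7 ± 8.90 and 85.1 ± 9.18 CPM (SD, n = 3 each). This was a log2 fold change of 0.82 with a 95% interval of 0.25 to 1.38 (edgeR's quasi-likelihood test, adjusted p = 0.797 over all genes). The interval is not adjusted for Klf2 being the largest of the 10. The pooled counts were 88 in WT IP and 155 in KO IP, a ratio of 1.79 (exact 95% interval 1.37 to 2.36, counting error only). Over the alternatives run for the 10 genes in IP, no adjusted p was below 0.464. Side by side, the log2 fold change of Klf2 was 1.01 (SE 0.32) in Input and 0.82 (SE 0.27) in IP.

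Ier2 and Zfp36 were low in both IP groups, at less than 30 CPM in each library. Ier2 was at 14.8, 24.0 and 28.2 CPM in WT IP and at 16.3, 22.2 and 14.96 CPM in KO IP, with the genotypes interleaved. Its log2 fold change was -0.27 (95% interval -1.07 to 0.53, edgeR adjusted p = 0.985). Zfp36 was at 11.8, 10.3 and 14.1 CPM in WT IP and at 21, 14.4 and 11.6 CPM in KO IP, from 6 to 11 counts a library. Here too the groups overlapped, with a log2 fold change of 0.33 (95% interval -0.59 to 1.25, edgeR adjusted p = 0.985).

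Apold1 went the other way in IP. It was at 11.8, 13.7 and 15.8 CPM in WT IP and at 4.67, 11.8 and 9.97 CPM in KO IP, with 8 to 9 counts per WT IP library and 2 to 9 per KO IP library. The KO IP libraries were all below the WT IP libraries, and the closest pair was nearly equal. The log2 fold change was -0.55 (95% interval -1.72 to 0.61, edgeR adjusted p = 0.985), which was not distinguishable from 0 at this depth.

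Btg2 was at 28.1, 32.6 and 31.7 CPM in WT IP and at 46.7, 39.2 and 36.6 CPM in KO IP. The KO IP libraries were all above the WT IP libraries, and the log2 fold change was 0.39 (95% interval -0.42 to 1.21, edgeR adjusted p = 0.985). Dusp1 was at 37.0, 51.4 and 33.5 CPM in WT IP and at 39.7, 48.4 and 39.9 CPM in KO IP, which overlapped (log2 fold change 0.09, 95% interval -0.51 to 0.68). The remaining genes also overlapped between genotypes in IP. Their log2 fold changes were -0.02 (SE 0.36) for Ier5, 0.16 (SE 0.29) for Zfp36l1, 0.15 (SE 0.35) for Klf4 and 0.42 (SE 0.30) for Klf6.

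**Figure D3:**
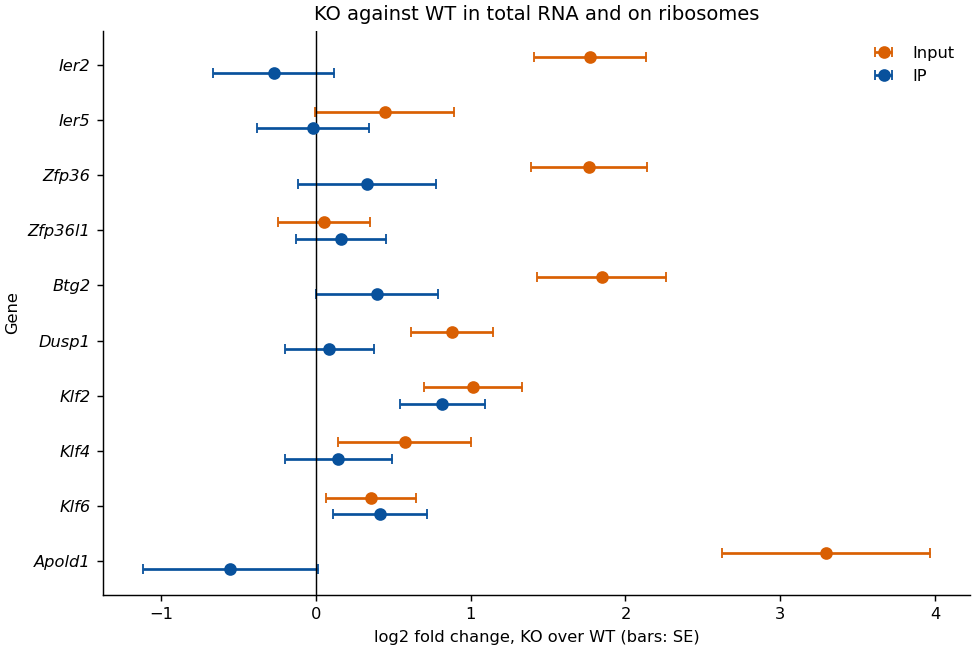
log2 fold change of KO over WT for each of the 10 genes (horizontal axis), in Input (orange) and in IP (blue), with bars for the SE of the edgeR fit. Ier2, Zfp36, Btg2 and Apold1 lie above 1.5 in Input and below 0.5 in IP, whereas Klf2 lies near 1 in both.

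Comparing IP with Input within a genotype gives, for each transcript, its share of the IP libraries relative to the Input libraries. Cycloheximide and RNA purification also differ between these fractions, so a ratio does not measure ribosome binding alone. The Input libraries of these comparisons are the ones the genes were chosen with, so the values are descriptions, and both comparisons share libraries with those above. In WT, Klf6, Zfp36l1 and Dusp1 were lower in IP past the threshold, 3 of 10 against 8.67% of all tested genes, and none was higher. Groups without overlap were found for 4 of the 10 in that direction (background 18.2%) and for 1, Apold1, in the other (background 16.4%). The log2 ratios of IP to Input were -1.31 (SE 0.30) for Klf6, -1.02 (SE 0.29) for Zfp36l1 and -1.15 (SE 0.28) for Dusp1. Zfp36l1 was no longer past the threshold without WT Input replicate 1, WT Input replicate 2 or WT IP replicate 2. For Dusp1, WT Input held 74.8 to 104 CPM and WT IP 33.5 to 51.4 CPM, which do not overlap. Zfp36 had a ratio of similar size, -1.20 (SE 0.44), on fewer counts. By contrast, Klf2 (-0.07, SE 0.31), Btg2 (-0.10, SE 0.44), Klf4 (0.30, SE 0.39) and Ier5 (0.24, SE 0.40) had ratios within 1 SE of 0. Apold1 had the highest, 1.53 (SE 0.72), against a WT Input group of 5 counts in all, and it was 0.91 without WT Input replicate 1 and 2.35 without WT Input replicate 3.

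In KO, all 10 ratios of IP to Input were below 0 and 7 passed the threshold, against 9.78% of all tested genes in that direction. The KO Input levels enter these ratios and were used to choose the genes, so nothing is read from the count. The 3 that did not pass were Ier5, Klf2 and Klf4. Without overlap were 6 of the 10 (background 15.6%). Zfp36 had the lowest ratio, -2.64 (SE 0.38), followed by Ier2 at -2.46 (SE 0.36) and Apold1 at -2.32 (SE 0.55). For Ier2, the KO Input libraries held 83.8 to 119 CPM and the KO IP libraries 14.96 to 22.2 CPM, a gap wider than either range. Dusp1 was at -1.94 (SE 0.27). Btg2 was at -1.55 (SE 0.38), and at -0.92, no longer past the threshold, without KO Input replicate 3. Klf6 was at -1.25 (SE 0.30), and at -0.61, also not past it, without KO Input replicate 2. Zfp36l1 was at -0.91 (SE 0.30) and kept its call in 4 of the 12 fits that each left out 1 library. The median over the 10 genes was -1.40 in KO and -0.25 in WT, beside 0.01 and 0.02 over all tested genes.

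**Figure D4:**
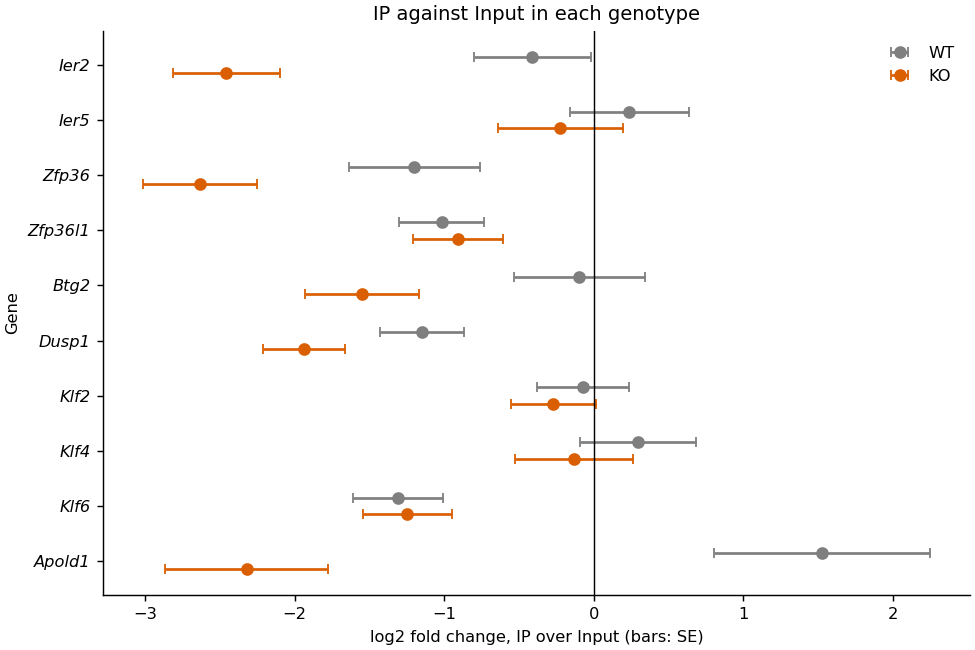
log2 ratio of IP to Input for each of the 10 genes (horizontal axis), in WT (grey) and in KO (orange), with bars for the SE of the edgeR fit. Klf6 is at -1.31 in WT and -1.25 in KO (-0.61 without KO Input replicate 2), while Apold1 is at 1.53 in WT and -2.32 in KO.

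The difference between these ratios, KO minus WT on the log2 scale, contains the Input difference by which the genes were chosen and is a description too. It was most negative for Apold1 at -3.85 (SE 0.90) and Ier2 at -2.05 (SE 0.53). Btg2 followed at -1.45 (SE 0.58; -0.82 without KO Input replicate 3) and Zfp36 at -1.44 (SE 0.60). For Dusp1 the difference was -0.79 (SE 0.39). For Zfp36l1 (0.11, SE 0.41), Klf6 (0.06, SE 0.41, and 0.71 without KO Input replicate 2) and Klf2 (-0.20, SE 0.42) it was within 1 SE of 0 with all libraries. The same held for Ier5 (-0.46, SE 0.58) and Klf4 (-0.43, SE 0.55). None of the 10 passed the adjusted threshold with edgeR in this comparison, nor with DESeq2 or limma-voom, where 0.0910% of all genes passed with edgeR. At an unadjusted p under 0.05 there were 4 of the 10, and 463 of the 6596 genes tested. Without the count filter 1 of the 10, Apold1, passed. Nothing is read from these counts, since the Input levels that enter them were used to choose the genes.

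The order of the genes depended on whether CPM was divided by length. The reads were nanopore direct cDNA, whose number need not rise with transcript length. By CPM alone, Klf6 led in WT Input at 128 ± 13.2 (SD, n = 3), above Dusp1 at 90.9 ± 14.9. In KO Input, Dusp1 led at 169 ± 51.9, followed by Klf6 at 160 ± 99.8, Btg2, Klf2 and Ier2. All other values are in CPM per kilobase of the longest protein-coding transcript, unless CPM alone is named. Per kilobase, Dusp1 was highest in WT Input at 45.7 ± 7.48 (SD, n = 3), followed by Klf6 at 30.3 ± 3.14. Zfp36l1 at 27.96 ± 1.85, Klf2 at 26.9 ± 9.22 and Ier2 at 20.1 ± 9.51 came next. Klf4, Btg2, Ier5 and Zfp36 lay between 13.1 and 10.03, and Apold1 was last at 1.40 ± 1.41. The mean ± SD of neighbours in this order overlapped except at its ends, between Dusp1 and Klf6 and between Zfp36 and Apold1. Per kilobase in KO Input, Ier2 stood next to Dusp1, at 67.3 ± 11.7 and 84.7 ± 26.1. Apold1 was last there at 13.4 ± 1.42, within the SDs of Ier5 at 14.2 ± 3.25. On ribosomes Klf2 led per kilobase in both genotypes. By CPM alone it led only in KO IP, at 85.1 ± 9.18. In WT IP, Klf6 at 51.7 and Klf4 at 49.1 CPM were slightly above Klf2 at 48.7 CPM. Per kilobase, Klf2 was at 26.4 ± 4.82 in WT IP, where its mean ± SD overlapped that of Dusp1 at 20.4 ± 4.77. In KO IP it was at 46.1 ± 4.97, above Dusp1 at 21.4 ± 2.50 by more than both SDs. Zfp36 and Apold1 were the lowest in both IP groups, at 4.33 ± 0.686 and 3.87 ± 0.562 in WT IP and at 5.62 ± 1.73 and 2.47 ± 1.04 in KO IP.

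The wider early-response programme was followed through a list of 18 AP-1, Egr and Nr4a transcription factors, 8 of which passed the count filter. In KO Input, 3 of the 8 were higher past the threshold (background 0.152%) and none was lower: Nr4a1, a nuclear receptor, by a log2 fold change of 2.88 (SE 0.44), the zinc-finger factor Egr1 by 3.23 (SE 0.53), and the AP-1 subunit Junb by 2.17 (SE 0.36). The median log2 fold change of the 8 was 1.44, beside 0.95 for the 10 genes. Like the 10 genes, this list was written with earlier results of these data known. Nothing is therefore read from its count or median in Input. In IP, 0 of the 8 passed between genotypes, and the smallest p was that of Jund (log2 fold change 0.70, SE 0.29, edgeR adjusted p = 0.920). Summed over the list, levels were 247 to 409.8 CPM in WT Input, 651 to 1563 in KO Input, 232 to 245 in WT IP and 276 to 334 in KO IP. Summed over the 10 genes, they were 466 to 569.7, 651 to 1183, 337.5 to 356 and 389.7 to 464 CPM in the same order. Both sums therefore put every KO Input library above every other library, and KO Input replicate 1 below the other KO Input libraries.

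Other feedback genes, mRNA decay genes and Krüppel-like factors were read from hand-made lists that leave out the 10 genes. The lists were written with earlier results of these data known, and the genes left out were chosen by their Input levels. Nothing is therefore read from the counts or medians of these lists in Input, nor from a contrast with the 10 genes. Of 31 further feedback genes (dual-specificity phosphatases, Sprouty and Spred proteins, inhibitors and the like), 18 were tested, and none passed between genotypes in Input or in IP with edgeR. Errfi1, an inhibitor of the EGF receptor, had the smallest p in Input, with a log2 fold change of 1.27 (SE 0.49, edgeR adjusted p = 0.570), and the NF-kB inhibitor gene Nfkbia in IP, with 0.79 (SE 0.29, edgeR adjusted p = 0.827). Their median in Input was 0.30. Of 32 further decay genes, 24 were tested and none passed between genotypes, with a median of -0.13 in Input and 0.00 in IP. Those with the smallest p were Cnot4 in Input (-1.74, SE 0.73, edgeR adjusted p = 0.645) and Lsm1, part of the decapping activator ring, in IP (-2.36, SE 0.58, edgeR adjusted p = 0.206). Of 14 further Klf genes 6 were tested and none passed between genotypes, with Klf10 at -0.999 (SE 0.49) in Input and Klf7 at 0.62 (SE 0.39) in IP.

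Between fractions, 2 of these 6 Klf genes had higher levels in IP in both genotypes, past the threshold that 5.37% of all genes passed in that direction in WT and 6.64% in KO. Klf13 had log2 ratios of IP to Input of 1.28 (SE 0.27) in WT and 1.13 (SE 0.29) in KO, and Klf9 of 0.91 (SE 0.22) and 0.77 (SE 0.23). Klf6, by contrast, had ratios of -1.31 and -1.25. Of the 24 tested decay genes, 1 was lower in IP past the threshold in WT and 3 in KO. Of all tested genes 8.67% and 9.78% were lower. Tia1, an AU-rich element binding repressor of translation, was lower in IP in both genotypes (-2.29, SE 0.53, in WT and -1.86, SE 0.60, in KO). Its IP levels were low, at 2.96 to 22.9 CPM in WT IP and 7.85 to 11.6 CPM in KO IP. Tob1, which like Btg2 belongs to the antiproliferative family that binds deadenylases, was lower in IP in KO (-1.28, SE 0.28) and was at -0.06 (SE 0.26) in WT. The difference of its ratios between genotypes did not pass (edgeR adjusted p = 0.425). Lsm1 was also lower in IP in KO (-2.37, SE 0.67), on the few KO IP counts named above.

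Since Klf2, Klf4 and Apold1 are prominent in endothelium, a list of 16 endothelial markers was set beside them. Its summed level was 1391 to 1433 CPM in WT Input, 1420.4 to 1705 in KO Input, 1298 to 1373 in WT IP and 1315 to 1508 in KO IP. None of its 15 tested genes passed between genotypes in either fraction with edgeR, and the smallest p values were those of Esam in Input (log2 fold change 0.58, SE 0.28) and Vwf in IP (0.56, SE 0.26). Of the 15, 10 had a log2 fold change above 0 in Input, with a median of 0.15. Pecam1 was at 75.3 ± 3.32 CPM in WT Input and 94.1 ± 18.8 in KO Input, and Flt1 at 96.2 ± 23.5 and 77.7 ± 28.6. The sums of the fibroblast list were 2784 to 3298 CPM in WT Input and 3028 to 3462 in KO Input, and those of the cardiac muscle list 65895 to 74945 and 60148 to 71222 CPM. Erythroid genes, such as those of hemoglobin, summed to 18328 to 165934 CPM in WT Input and 16780 to 47729 in KO Input, and to 22927 to 203374 in WT IP and 16224 to 72541 in KO IP. All 7 tested erythroid genes had a log2 fold change below 0 in KO in both fractions, with medians of -1.01 in Input and -1.34 in IP, and none passed with edgeR. The median in Input was 0.27 for 7 macrophage and leukocyte genes and -0.20 for 7 smooth muscle and pericyte genes. The part of these cell types in the values of the 10 genes was not tested.

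**Figure D5:**
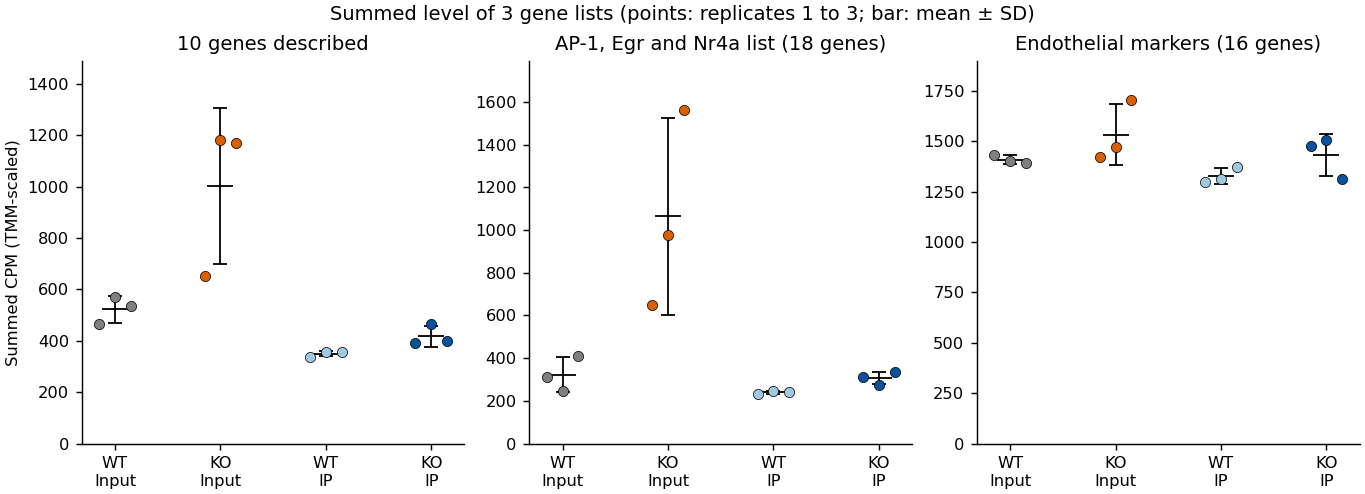
Summed level in TMM-scaled CPM (vertical axes, from 0) of the 10 genes, the 18 AP-1, Egr and Nr4a genes and the 16 endothelial markers in each library, with points for replicates, a bar for the mean and whiskers for the SD. KO Input stands at 651 to 1183 CPM for the 10 genes, above the other groups, while the endothelial sums run from 1298 to 1705 CPM over all libraries.

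Among themselves, the 10 genes were most alike over the 12 libraries for Zfp36 and Dusp1, with a Pearson r of 0.92 between their log2 CPM. Ier2 had an r of 0.90 with Zfp36 and 0.89 with Dusp1. Ier5 and Zfp36l1 were the least alike, with an r of -0.13. The points share libraries, depth and the 4 groups, so these values are descriptions without a p. Among tested genes outside the 10, the profile most like their mean was that of Nr4a1 (r = 0.94), followed by S1pr1 and Pam (0.93 each), Ltbr (0.90), Sgk1 (0.89), Guf1 and Ppip5k2 (0.88 each) and Sesn1 (0.88). Taken singly, the nearest gene was Angpt1 for Ier2 (0.95), Nudt4 for Zfp36 (0.95), Myl9 for Dusp1 (0.97), Pam for Btg2 (0.92) and Tpst2 for Apold1 (0.94). It was Atp2c1 for Zfp36l1 (0.94), Sdf2 for Klf6 (0.93), Rhobtb1 for Klf2 (0.89), Gm13552 for Ier5 (0.87) and Pitpnc1 for Klf4 (0.86).

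The 10 genes have few exons. Their transcripts have a median of 2 exons, against 9 over the 6469 tested protein-coding genes, and none has more than 5, a limit that 27.8% of those genes meet. Ier2 and Ier5 have 1 exon each, and Klf4, with 5, has the most. Their transcript lengths are not unusual, with a median of 2890 bases against 3142. The median 3' UTR is 1409 bases against 1235.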

How the data were processed

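Poly(A) RNA of 12 heart libraries was sequenced as nanopore direct cDNA. The authors deposited 1 raw count per gene and library. minimap2 2.14, DESeq2 1.34.0 and build GRCm38 are named in the submitters' processing notes, and the counting rule was not given in the sources used here. IDs were matched without version to GENCODE M21 (55141 of 55401). Genes passing filterByExpr (minimum count 10, minimum total 15; 6596 genes) were fitted with edgeR 4.0.16 in R 4.3.3 (TMM, quasi-likelihood, 4 group means over 12 libraries), with Benjamini-Hochberg adjustment over all of them at 0.05. The SE is the log2 fold change divided by the square root of F. The fit was tested on simulated data. Intervals of pooled counts cover counting error only. P-values set a difference of groups of 3 libraries against a spread per gene estimated over all 12 libraries and moderated across genes.

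The 10 genes and the lists were chosen with earlier results of these data known. Genes named are the 10, Rpl3l, up to 3 genes per list, comparison and direction past the threshold ranked by p (the lowest p where none passed), a few cell markers, the 8 genes nearest to the mean profile and the nearest gene of each of the 10. Same-numbered libraries did not deviate together (correlations of -0.12 to 0.04, own number best in 0 of 18 cases), so none were paired. Alternatives were other size factors, filters and tests (DESeq2 1.42.0, limma 3.58.1), a fit of only the compared libraries, a replicate block and leaving out each library. Rank tests of 3 against 3 cannot go below an exact p of 0.10 and were not used.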

Additional observations from a re-analysis of the deposited data

How the results depend on the processing

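For KO against WT in Input, 3 of the 10 genes passed, 0 with at least 30 counts in 3 libraries (a filter that removes 5 genes, these 3 among them), 1 with limma-voom, 4 with the DESeq2 test and 4 without a count filter, and 0 to 3 when each library was left out. With the replicate block 2 passed, though the labels do not say whether the numbers pair the libraries. In IP 0 passed under every alternative run, and 0 to 0 with each library left out, but some alternatives did not test all 10 genes. Apold1 had no adjusted p there with the DESeq2 test. When only the IP libraries were fitted, Apold1 and Zfp36 did not pass the count filter and were not tested. The filter of 30 counts left 5 genes untested here too. The filter of 30 counts gave a median IP to Input ratio (log2) of -1.07 in WT (main value -0.25), and in KO -0.94 with 3 passing (main values -1.40 and 7). Leaving out each library gave 2 to 3 passing in WT and 5 to 7 in KO. For the difference of these ratios 1 gene passed without a count filter and 0 otherwise. In IP, the log2 fold change of Ier5 (-0.02) was 0.11 with library totals, and ran from -0.24 to 0.16 as each library was left out, that of Zfp36l1 from -0.061 to 0.40, Klf4 from -0.091 to 0.39 and Dusp1 from -0.028 to 0.28. The causes were not tested. Low counts limit Ier2 (7 to 17 per library), Zfp36 (6 to 11) and Apold1 (2 to 9) in IP.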

Other observations

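Regulators that act before the early-response genes were read from a list of 25 MAP kinases, their upstream kinases and the factors they act on, of which 19 were tested. None passed between genotypes in Input or in IP with edgeR, and their median log2 fold changes were 0.05 and -0.01. The smallest p values were those of Mapk14, the p38 kinase gene, in Input (log2 fold change -0.71, SE 0.36, edgeR adjusted p = 0.721) and of Map2k3, which activates that kinase, in IP (-0.46, SE 0.22, edgeR adjusted p = 0.943). Between fractions, 1 of the 19 was higher in IP in WT (background 5.37%). In KO 3 were higher and 1 lower (background 6.64% and 9.78%). Srf, the gene of serum response factor, was higher in IP than in Input in both genotypes, with log2 ratios of 1.66 (SE 0.32) in WT and 1.20 (SE 0.34) in KO. Its CPM was 30.7 ± 10.9 in WT Input and 99.6 ± 36.3 in WT IP (SD, n = 3 each). In KO, the coactivator gene Crebbp (0.84, SE 0.28) and the Srf partner gene Elk4 (2.12, SE 0.72) were also higher in IP, and Map2k3 was lower (-0.69, SE 0.24). The ratio of Elk4 rests on very few counts. It was at 0 to 7.70 CPM in KO Input, where 3 counts stood for 11.4 to 17.0 CPM.

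Of 15 endothelial markers tested, 4 were higher in IP in WT and 2 lower (background 5.37% and 8.67% of all genes), and 3 were higher and 3 lower in KO (6.64% and 9.78%). Flt1, a VEGF receptor, had log2 ratios of IP to Input of 0.81 (SE 0.22) in WT and 1.35 (SE 0.24) in KO, and the receptor phosphatase Ptprb of 0.99 (SE 0.25) and 1.096 (SE 0.27). Egfl7, a secreted endothelial factor, was at -1.97 (SE 0.22) and -1.79 (SE 0.23), and the adhesion molecule Esam at -1.40 (SE 0.30) and -1.37 (SE 0.29).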
